A study of Mus musculus with 48 samples.

Results

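The 39 Hox genes of the mouse were followed as a readout of posterior tissue in dissected cerebral cortex. They were chosen by symbol alone, as every row named Hox with a cluster letter from a to d and a paralog number, and made up 39 of the 24444 rows of the expression table. The table holds RNA-seq values of 48 male C57BL/6J mice, with 6 wild-type (WT) and 6 heterozygous Chd8 V986*/+ (HET) mice at each of 4 ages, embryonic day 14.5 (E14.5) and 1, 6 and 12 months. Chd8 encodes a chromatin remodeller, and the V986* allele is a premature stop codon made by CRISPR/Cas9 in a line that goes back to a single founder. Each sample was the cortex of 1 hemisphere of 1 mouse, so every mouse was measured at 1 age only. WT controls were littermates, and no treatment is given for any group.

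Hox genes encode homeodomain transcription factors that give cells their position along the head-to-tail axis. They lie in 4 clusters, and the order of the genes within a cluster follows the order of their domains in the embryo: genes with low paralog numbers are switched on as far forward as the hindbrain, and genes with high numbers only in the trunk and tail. The forebrain, including the cortex, develops in front of all of these domains. Hox proteins bind DNA together with cofactors of the TALE class (Pbx, Meis and Pknox), and retinoic acid is a known inducer of the genes at the front of each cluster.

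In the mm9 build, which the study aligned to, the GENCODE M1 annotation placed 11 genes of the Hoxa cluster on chromosome 6 (chr6:52105366-52210874, minus strand), 10 of Hoxb on chromosome 11 (chr11:96055630-96229570, plus strand), 9 of Hoxc on chromosome 15 (chr15:102751534-102867274, plus strand) and 9 of Hoxd on chromosome 2 (chr2:74506367-74603200, plus strand). Of the 39 genes, 8 belonged to paralog groups 1 to 3, 15 to groups 4 to 8 and 16 to groups 9 to 13. Exons of Hoxa2 and Hoxa3, of Hoxb7 and Hoxb8 and of Hoxd3 and Hoxd4 shared bases in that annotation, so the split of reads within these 3 pairs is uncertain. The labels name a kit that does not mark strand and the methods describe stranded libraries, and whether strand was used in counting is not given in the sources used here, so the split of reads between a Hox gene and an antisense transcript over it is uncertain too.

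The 250 bases before the start of 3 genes are shown because these genes mark the edge of the pattern described below: Hoxa5, the last gene of its cluster with reads in the mouse that stood apart, Hoxd4, the last gene of the Hoxd cluster with more than 1 read there, and Hoxd8, the next gene of that cluster, which had no reads in that mouse and some in all others of its age. The sequences are from RefSeq (GRCm38.p6) on the strand of the gene, and an exact match placed them in mm9 at chr6:52154587-52154836 (minus strand), chr2:74559785-74560034 (plus strand) and chr2:74542422-74542671 (plus strand), outside any annotated exon. Capitals mark the homeodomain core TAAT on either strand.
Hoxa5: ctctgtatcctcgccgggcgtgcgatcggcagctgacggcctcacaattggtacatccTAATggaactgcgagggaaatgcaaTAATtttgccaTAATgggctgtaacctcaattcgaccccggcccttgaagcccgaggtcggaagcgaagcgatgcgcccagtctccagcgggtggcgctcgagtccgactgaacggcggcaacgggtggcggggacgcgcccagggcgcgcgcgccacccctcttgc
Hoxd4: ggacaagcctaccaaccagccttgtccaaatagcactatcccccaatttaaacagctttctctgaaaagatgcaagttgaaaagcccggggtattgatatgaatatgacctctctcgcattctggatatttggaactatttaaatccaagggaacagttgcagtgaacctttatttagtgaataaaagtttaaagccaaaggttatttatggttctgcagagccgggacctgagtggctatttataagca
Hoxd8: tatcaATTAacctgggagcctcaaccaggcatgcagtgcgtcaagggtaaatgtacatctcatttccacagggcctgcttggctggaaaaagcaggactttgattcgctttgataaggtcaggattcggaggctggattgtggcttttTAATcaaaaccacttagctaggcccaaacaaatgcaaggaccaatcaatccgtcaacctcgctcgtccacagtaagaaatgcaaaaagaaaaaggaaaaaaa
The core stood 3 times in the Hoxa5 window, not in the Hoxd4 window and 2 times in the Hoxd8 window. Of the 22 Hox genes with a promoter in the table, 16 held it, against 54.9% of all 32851 promoters. The Pbx-Hox motif TGATNNAT was found in Hoxa2, Hoxb1, Hoxb8 and Hoxd11 (7.68% of all promoters), and the Meis motif TGACAG in Hoxa2 and Hoxa3 (15.9%). The retinoic acid response element, searched as an exact direct repeat, was in none of the 22 and in 0.00913% of all. All motifs were searched on both strands, and a Pbx-Hox match may overlap the core. These matches describe the letters of these windows only.

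The table gives variance-stabilized values (VST) on a log2 scale. A gene without reads sits at 2.14, the floor of the table, or close to it, because the difference between replicates 1 to 3 and 4 to 6 had been taken out of every gene. For the Hox genes the value that stands for no reads was shared by at least 7 of the 24 mice of each set of replicates. Counted from that value, the transformation could be turned back into normalized counts and, with the size of the smallest steps in each mouse, into reads: of 249 Hox values above 0 and under 20 reads, 94.4% lay within 0.05 of a whole number. Reads are given below as the nearest whole number. The intervals on them cover counting error only. Relative depth, the inverse of the normalized count that 1 read was worth, differed 4.64-fold over the 48 mice. Chd8 itself, the check of the labels, was lower in HET mice at every age, by 0.54 to 0.67 on the log2 scale (limma, adjusted p = 0.0261 at E14.5, the highest of the 4).

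At E14.5 a single WT mouse, replicate 5, held most of the Hox reads. It had 730 reads over the 39 genes (95% Poisson interval 678 to 785), while the other 5 WT mice had 15 to 48 and the 6 HET mice 10 to 21. As normalized counts, which allow for depth, the sum was 1065 in WT replicate 5, 42.1 in WT replicate 3, 29.2 in WT replicate 6, 17.5 in WT replicate 2, 13.5 in WT replicate 4 and 12.0 in WT replicate 1. In HET mice it was 8.57 to 17.0, with a median of 12.5. WT replicate 5 stood 25.3-fold above the next mouse, and it was the shallowest of the 12 libraries, with a relative depth of 0.685. The Hox level, the mean VST over the 39 genes, was 3.44 in WT replicate 5, 2.28 to 2.48 in the other WT mice and 2.25 to 2.34 in HET mice.

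**Figure D1:**
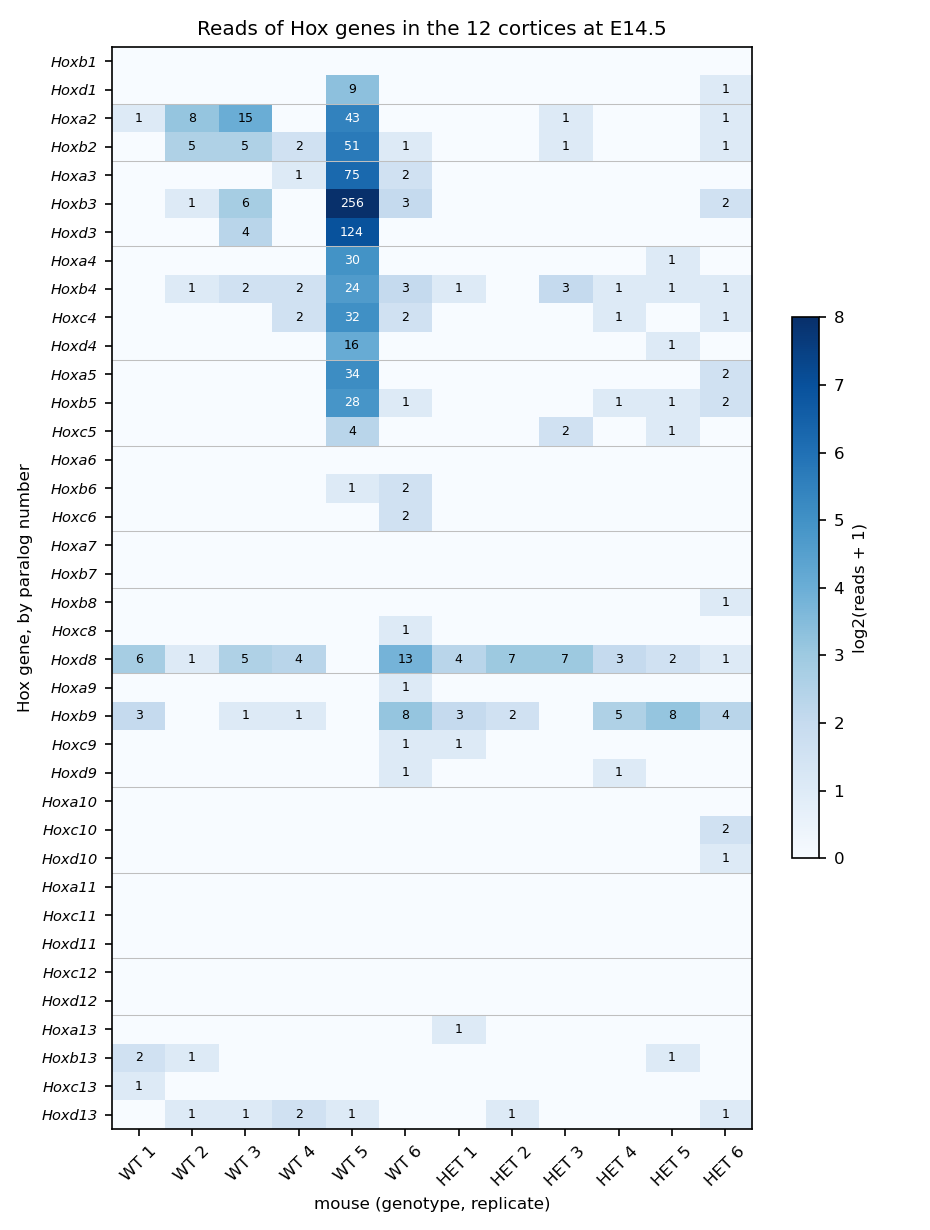
Reads of the Hox genes (rows, ordered by paralog number, with 1 member not shown) in the 12 cortices at E14.5 (columns, WT and HET replicates 1 to 6). The shade is log2(reads + 1), the printed number is the read count and an empty cell is 0. The column of WT replicate 5 is filled from paralog group 1 to group 5 and nearly empty after it, and Hoxd8 and Hoxb9 are read in most of the other columns.

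The reads of WT replicate 5 ended after paralog group 5. Of the 15 genes of paralog groups 1 to 5, 14 had reads in this mouse, 728 in all, and Hoxb1, which marks a single segment of the hindbrain, was the exception. Of the 24 genes of groups 6 to 13, only Hoxb6 and Hoxd13 had a read, 1 each. The 3 genes of group 3 carried 62.3% of the Hox reads. Every cluster took part, with 184 reads in Hoxa, 360 in Hoxb, 36 in Hoxc and 150 in Hoxd. In each cluster this mouse ranked first of the 12, as it did for paralog groups 1 to 3 and 4 to 8, but it ranked 11 of 12 for groups 9 to 13. Normalized counts of 14 Hox genes were higher in WT replicate 5 than in each of the other 11 mice. By reads it was 13, without Hoxb6, which had 1 read in this mouse and 2 in WT replicate 6. Over all 16877 genes tested at this age, 12.9% had their highest value in WT replicate 5 and 10.6% their lowest. Of the 11 Hox genes among them, 8 had their highest and 2, Hoxd8 and Hoxb9, their lowest. The 8 cannot be set against the 12.9%, because the filter (a mean at least 0.5 above the floor) let in genes through this mouse. Without it 5 Hox genes passed. Hoxb9 also had no reads in WT replicate 2 and HET replicate 3, whose set of replicates has a higher zero-read level.

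**Figure D2:**
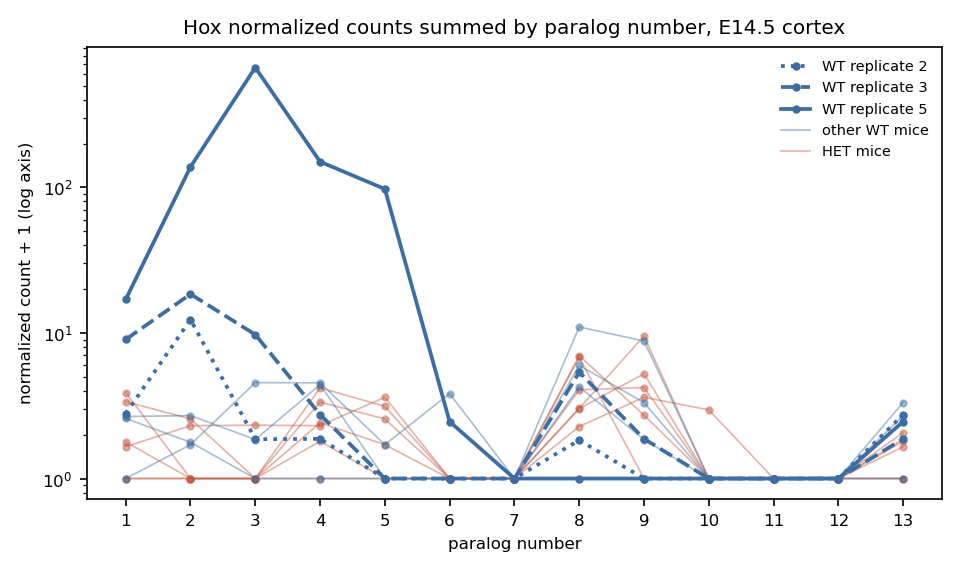
Normalized counts summed over the genes of each paralog number (x axis, 1 to 13) in each of the 12 mice at E14.5, plotted as count + 1 on a log axis. Each line is a mouse, WT in blue and HET in red, with WT replicates 2, 3 and 5 drawn heavier. WT replicate 5 peaks at paralog number 3 and drops to the level of the others at number 6, and WT replicates 2 and 3 have a lower peak at number 2.

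Genes of paralog groups 1 and 2 pattern the front of the hindbrain. Hoxa2, whose domain reaches farthest forward, had 43 reads in WT replicate 5, 15 in WT replicate 3, 8 in WT replicate 2 and 1 in WT replicate 1. WT replicates 4 and 6 had none, and among HET mice replicates 3 and 6 had 1 read each. Hoxb2, a target of the hindbrain factor Krox20, had 51 reads in WT replicate 5, 5 each in WT replicates 2 and 3, 2 in WT replicate 4, 1 in WT replicate 6 and 1 each in HET replicates 3 and 6. Both genes were thus read in a series of WT mice, and as normalized counts WT replicate 5 exceeded WT replicate 3 by 4.79-fold for Hoxa2 and 17.0-fold for Hoxb2. Hoxd1, known from pain-sensing neurons of the dorsal root ganglia, had 9 reads in WT replicate 5, 1 in HET replicate 6 and none elsewhere at this age.

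Genes of group 3 are active in the caudal hindbrain and in the spinal cord. Hoxb3 had 256 reads in WT replicate 5 (95% Poisson interval 226 to 289), 6 in WT replicate 3, 3 in WT replicate 6, 2 in HET replicate 6, 1 in WT replicate 2 and none in the other 7 mice. Its VST was 8.41 in WT replicate 5 and 1.97 to 3.82 in the other WT mice, and 1.97 to 2.75 in HET mice. Hoxd3 had 124 reads in WT replicate 5, 4 in WT replicate 3 and none in the other 10 mice. Hoxa3, needed for the thymus and other organs of the pharynx, had 75 reads in WT replicate 5, 2 in WT replicate 6 and 1 in WT replicate 4, and no HET mouse had a read of it. For Hoxb3 and Hoxd3 the normalized count of WT replicate 5 was 71.1-fold and 51.9-fold that of WT replicate 3.

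Genes of groups 4 and 5 act in the spinal cord of the neck and upper trunk. In WT replicate 5 Hoxa4, Hoxb4, Hoxc4 and Hoxd4 had 30, 24, 32 and 16 reads. Hoxa5 and Hoxc5, which specify the motor neurons of the diaphragm, had 34 and 4, and Hoxb5 had 28. In the other 11 mice no gene of these groups exceeded 3 reads, and Hoxa4, Hoxd4 and Hoxa5 had reads in 1 other mouse each, a HET mouse in every case. Hoxb4 was the exception in breadth, with 1 to 3 reads in 9 of the other 11 mice.

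Per kilobase of exon, Hoxb3 had the highest level in WT replicate 5, with a normalized count of 124 (95% Poisson interval 110 to 140). Hoxd3 followed with 31.3 (26.0 to 37.2), then Hoxa4 with 27.5, Hoxa5 with 26.4, Hoxa2 with 25.9 and Hoxb2 with 22.5. The interval of Hoxb3 lay above all others, while those of Hoxd3 down to Hoxb2 overlapped. Lower on the same scale were Hoxc4 at 18.3, Hoxa3 at 16.0, Hoxb5 at 14.5, Hoxd4 at 9.14, Hoxb4 at 8.45 and Hoxd1 at 7.05, again with neighbouring intervals that overlapped. In every other mouse the reads were too few to order the genes.

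Hoxd8 and Hoxb9, trunk genes of groups 8 and 9, had the opposite distribution. Hoxd8 had reads in each of the 11 other mice, from 1 to 13 with a median of 4, and none in WT replicate 5. Hoxb9 had 1 to 8 reads in 9 mice and none in WT replicates 2 and 5 and HET replicate 3. At the depth of WT replicate 5, however, the median level of the other mice would have given only 2.23 reads of Hoxd8 and 1.59 of Hoxb9, and a count of 0 allows up to 3. A lower level in that mouse was therefore not detectable at this depth. The other genes past group 5 were nearly silent. At E14.5 Hoxd13, a gene of limb and genital development, had 1 or 2 reads in 6 mice, and the remaining genes of groups 6 to 13 had at most 2 reads in any mouse.

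In all, 8 members were at 0 reads in all 48 mice: Hoxb1, Hoxa6, Hoxa10, Hoxa11, Hoxc11, Hoxd11, Hoxc12 and Hoxd12. Of the other 31, 29 had reads at E14.5 and 24 at 1, 6 or 12 months. Reads at E14.5 only were seen for Hoxc8, Hoxb9, Hoxc9, Hoxd9, Hoxd10, Hoxa13 and Hoxd13, and reads after birth only for Hoxa7 and Hoxb7.

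Other transcripts of the clusters were measured in the same mice. Haglr, a long noncoding RNA of the Hoxd cluster, had 37 reads in WT replicate 5, 2 in WT replicate 3 and none in the other 10 mice, and Hoxaas2, an antisense transcript of the Hoxa cluster, had 17, 1 and none. Hotair and Hottip, noncoding RNAs of the posterior ends of the Hoxc and Hoxa clusters, were at 0 in WT replicate 5. They were also at 0 in every other mouse at every age, so their absence did not set WT replicate 5 apart. Evx1 and Evx2, homeobox genes next to the posterior ends of Hoxa and Hoxd and markers of a class of spinal and hindbrain interneurons, did not share the paralog edge. The VST of Evx2 was 7.13 in WT replicate 5, 6.82 and 6.66 in WT replicates 3 and 2, 5.83 in HET replicate 3 and 5.39 in WT replicate 4, and 2.22 to 3.63 in the other mice. Evx2 was thus high in several mice with few or no reads of Hox groups 3 to 5.

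Comparing the genotypes asks whether the Hox genes respond to the loss of 1 Chd8 copy. At E14.5, 11 Hox genes passed the filter on low values (a mean at least 0.5 above the floor) and none was called by limma at an adjusted p below 0.1, against 0.00593% of all genes tested. At an unadjusted p below 0.05, 2 of the 11 were lower in HET mice, Hoxa2 and Hoxb2, against 4.56% of all genes. For Hoxb2 the HET mean was 2.34 ± 0.30 (SD, n = 6) and the WT mean 3.55 ± 1.46 (SD, n = 6), a difference of -1.22 (SE 0.52; adjusted p = 0.982 by limma; exact permutation p = 0.0260). For Hoxa2 the difference was -1.24 (SE 0.56; adjusted p = 0.982 by limma; exact permutation p = 0.0801). The ranges of the genotypes overlapped for both genes. Of the 11 genes, 6 passed the filter only through WT replicate 5, Hoxb2 among them. The p-values of Hoxb2 thus rest on the mouse that brought it into the test. Without this mouse 5 genes were tested, Hoxa2 but not Hoxb2 among them. None was called (0% of all genes) and none had an unadjusted p below 0.05 (2.96%).

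The Hox level at E14.5 was 2.29 ± 0.035 in HET mice and 2.55 ± 0.44 in WT mice (SD, n = 6 each), a difference of -0.26 that is a description with no test. Without WT replicate 5 it was -0.08. Of 21 hindbrain and spinal cord markers tested at this age none was called between genotypes either, and 9 had an unadjusted p below 0.05 by limma (4.56% of all genes). The median difference of the 21 was -1.21 (0.00102 over all genes). WT replicate 5 was among the mice fitted, and 20 of the 22 markers listed were highest in it. Values of the list without this mouse are not given here. The part of these markers in the Hox difference was not tested. The difference was -0.85 over paralog groups 1 to 3, -0.22 over groups 4 to 8 and 0.0054 over groups 9 to 13, and without WT replicate 5 it was -0.35, -0.0069 and -0.0081. As summed normalized counts, HET mice had a mean of 12.1, and WT mice 197 with replicate 5 and 22.8 without it.

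After birth 1 or 2 Hox genes passed the filter. No Hox gene was called between genotypes at 1 month (1 tested; 0.139% of all genes called), 6 months (1 tested; 0.0927%) or 12 months (2 tested; 0.0463%). At an unadjusted p below 0.05 the counts were 0 at 1 month (8.8% of all genes), 1 at 6 months (7.59%) and 0 at 12 months (11.6%). The 1 was Hoxd1, with a difference of -0.51 between HET and WT mice at 6 months (SE 0.23; adjusted p = 0.639 by limma; exact permutation p = 0.0758). At 1 month and 12 months its difference was -0.34 (SE 0.27) and 0.14 (SE 0.23).

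The difference of the genotype effect at E14.5 from its mean at the 3 later ages was tested in a single limma model of all 48 mice. Of 12 Hox genes tested, none was called (0.0114% of all genes), and 6 had an unadjusted p below 0.05 (6.7% of all genes), among them Hoxa2, Hoxb2 and Hoxb3. The lowest adjusted p was 0.316, for Hoxa2 (contrast -1.27, SE 0.37). All 6 contrasts were below 0, and WT replicate 5 was among the mice fitted.

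**Figure D3:**
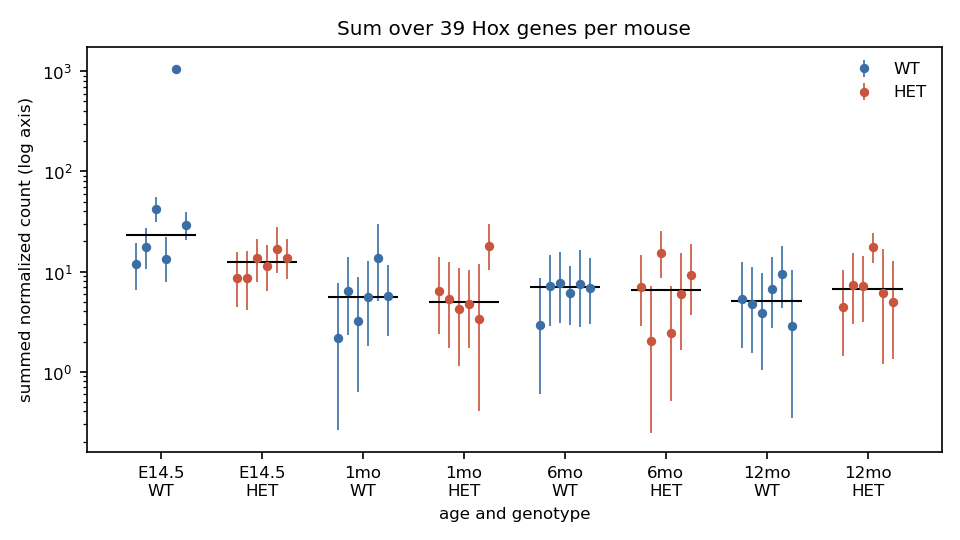
Normalized counts summed over the 39 Hox genes in each mouse (points, log axis), by age and genotype, with 95% Poisson intervals that cover counting error only and the median of each group as a black line. WT replicate 5 at E14.5 stands at 1065, and every mouse at 1, 6 and 12 months is between 2.0 and 18.1.

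After birth each mouse had few Hox reads. At 1, 6 and 12 months the summed normalized count was 2.0 to 18.1 with a median of 6.06, against a median of 13.7 in the E14.5 mice other than WT replicate 5. Of the 1404 Hox values after birth, 154 were above 0, 104 of these were a single read, and the highest was 7 reads. Comparing 1 month with E14.5 asks which genes changed between the embryonic and the young adult cortex, and 8 Hox genes were tested in WT mice. Of these, 3 fell, Hoxa2, Hoxb2 and Hoxd8 (42.3% of all genes tested were called lower), and none rose (43.4% of all genes). Without WT replicate 5, 3 were tested, 1 fell (Hoxd8; 41.9% of all genes) and 1 rose (Hoxd1; 43.2%). In HET mice 3 were tested, 2 fell (Hoxb9 and Hoxd8; 42.4% of all genes) and none rose (43.7%). With 3 to 8 genes tested, these counts cannot be set apart from the share of all genes called. The filter also fixed some directions. At 1 month no WT mouse had reads of Hoxa2 or Hoxb2, and 1 of 6 had reads of Hoxd8. These genes passed through their E14.5 values, so only a fall could be called. Without WT replicate 5 Hoxd1 passed through its 1 month values, so only a rise could be called. The WT comparison depended on its mice: 5 genes were called without replicate 1 or replicate 5 at 1 month, and 6 without replicate 1 at E14.5.

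Hoxd8 was the gene that fell in both genotypes. In WT mice its VST had a mean of 3.25 ± 0.69 at E14.5 and 2.27 ± 0.30 at 1 month (SD, n = 6 each), a difference of -0.98 (SE 0.28; adjusted p = 0.00496 by limma). In HET mice the means were 3.28 ± 0.40 and 2.42 ± 0.45, a difference of -0.85 (SE 0.24; adjusted p = 0.00340 by limma). Reads of Hoxd8 summed to 53 over the 12 mice at E14.5 and 9 over the 36 mice after birth. Hoxb9 had 35 reads at E14.5 and 0 in all 36 later mice. In HET mice its mean was 3.17 ± 0.56 at E14.5 and at the floor at 1 month, a difference of -1.02 (SE 0.23; adjusted p = 0.000674 by limma). Hoxb9 passed the filter through its E14.5 values alone, so a fall was the only call open to it. The 1 month means of Hoxd8 were under the filter level of 2.64 too. In WT mice Hoxb9 stayed under the filter, with 13 reads over the 6 mice at E14.5.

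Hoxd1 and Hoxa7 were read mainly after birth. Hoxd1 had reads in 31 of the 36 mice at 1, 6 and 12 months, never more than 5 in a mouse, and in 2 of 12 at E14.5. From E14.5 through the 3 later ages in order, its mean VST in WT mice was 2.52 ± 0.90, 3.20 ± 0.55, 3.17 ± 0.30 and 2.86 ± 0.41 (SD, n = 6 each). In HET mice it was 2.24 ± 0.21, 2.87 ± 0.43, 2.66 ± 0.45 and 3.0 ± 0.28. With all WT mice the difference between 1 month and E14.5 was 0.69 (SE 0.38; adjusted p = 0.104 by limma), and without WT replicate 5 at E14.5 it was 1.05 (SE 0.25; adjusted p = 0.00117 by limma). No WT mouse at E14.5 other than replicate 5 had a read of Hoxd1. Without that mouse Hoxd1 passed the filter through its 1 month values alone, so a rise was the only call open to it. Centring each mouse on its median gene lowered the median of all genes by 0.21 in WT and 0.23 in HET mice, and left the WT difference of Hoxd1 without replicate 5 at 0.84, above 0. Haglr, which lies beside Hoxd1, had 65 reads in 28 of the 36 mice after birth. Hoxa7, a trunk gene, had 26 reads in 16 of 36 mice after birth and none at E14.5, and Hoxb4 had 1 to 7 reads in 22 of 36.

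**Figure D4:**
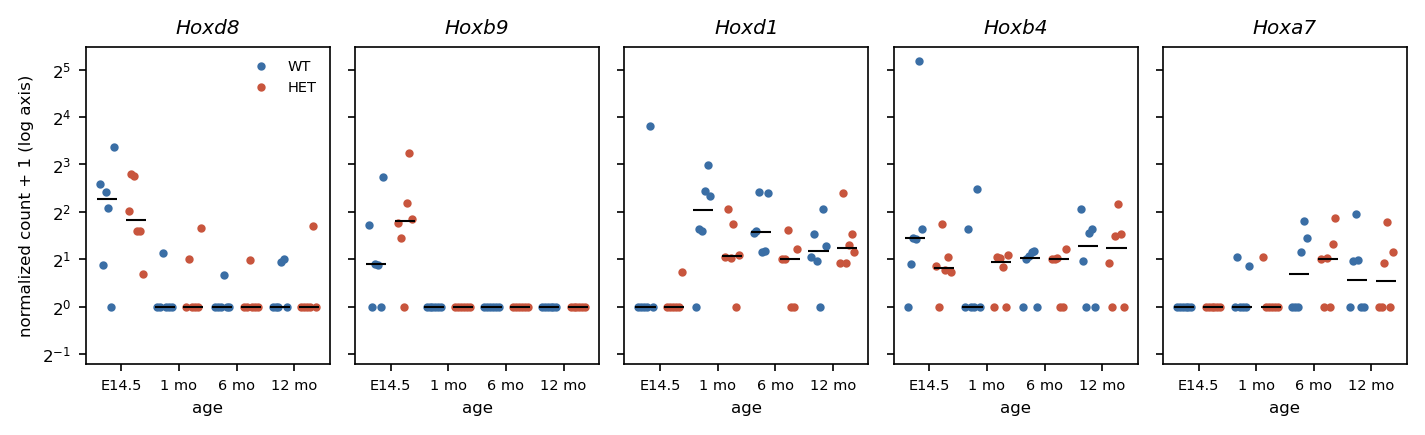
Normalized count + 1 (log axis) of Hoxd8, Hoxb9, Hoxd1, Hoxb4 and Hoxa7 in each mouse (points, WT blue, HET red) at the 4 ages, with group medians as black lines. Hoxb9 is at 0 in all 36 mice after birth, Hoxa7 is at 0 in all 12 mice at E14.5, and the high points of Hoxd1 and Hoxb4 at E14.5 are WT replicate 5.

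The highest sums after birth were 18.1 in HET replicate 6 at 1 month, 17.4 in HET replicate 4 at 12 months and 15.4 in HET replicate 3 at 6 months. HET replicate 4 at 12 months was the deepest library of the 48, with a relative depth of 2.02, and its 35 reads were spread over 11 genes, with Hoxb4 at 7 and Hoxa7 at 5. No mouse after birth had reads in more than 11 Hox genes, against 16 in WT replicate 5 at E14.5 and 14 each in WT replicate 6 and HET replicate 6 of that age. These counts of genes do not allow for depth.

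Lists of marker genes of other tissues were set beside the Hox level to describe the 12 cortices at E14.5. All 12 cortex markers, among them Emx1, were above their zero-read level in WT replicate 5, but their mean VST was the lowest of the 12 there, 11.3 against 11.4 to 12.2 in the other WT mice and 11.7 to 12.1 in HET mice. The 22 hindbrain and spinal cord markers, which hold no Hox gene, had their highest mean in WT replicate 5, 6.95, and 20 of the 22 were highest in that mouse. Of the genes that passed the filter at this age, 12.9% were. The list was not filtered, so its count cannot be set against that share. Mnx1, a motor neuron gene of the list, was at its zero-read level in WT replicate 5. In a bulk sample, fewer cells of a type and less RNA per cell cannot be told apart.

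The same list did not follow the Hox genes in every mouse. Its mean was 6.10 in WT replicate 3, 6.03 in WT replicate 2, 5.33 in HET replicate 3, 5.0 in WT replicate 4 and 3.87 to 4.43 in the other 7. HET replicate 3 nevertheless had only 17 Hox reads, 7 of them from Hoxd8. Midbrain and isthmus markers, 11 in number, ranged from 4.05 to 6.74 in the other WT mice and 4.34 to 6.12 in HET mice, and reached 7.03 in WT replicate 5.

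The lists of the peripheral nervous system and of other tissues separated WT replicate 5 further. The 6 peripheral markers in the table, which include Prph, an intermediate filament of peripheral neurons, and Sox10, a factor of Schwann cells, had a mean of 8.67 in WT replicate 5, 5.82 to 6.94 in the other WT mice and 5.87 to 6.48 in HET mice. Prph and Pou4f1 of this list are also in the hindbrain and spinal cord list, so these lists are not separate. Markers of blood (6 genes) were also highest in WT replicate 5, 8.10 against 7.01 to 7.88 in the other mice. Thalamus and hypothalamus markers (12 genes) had means of 9.46 in WT replicate 5 and 7.97 to 9.02 elsewhere. In the other lists WT replicate 5 ranked 3 for choroid plexus, 5 for skeletal muscle, whose defining genes Myod1, Myog, Myf5 and Myf6 were at their zero-read level there, 7 for ganglionic eminence and 11 for meninges and mesenchyme. The part of other tissue in the Hox values was not tested.

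**Figure D5:**
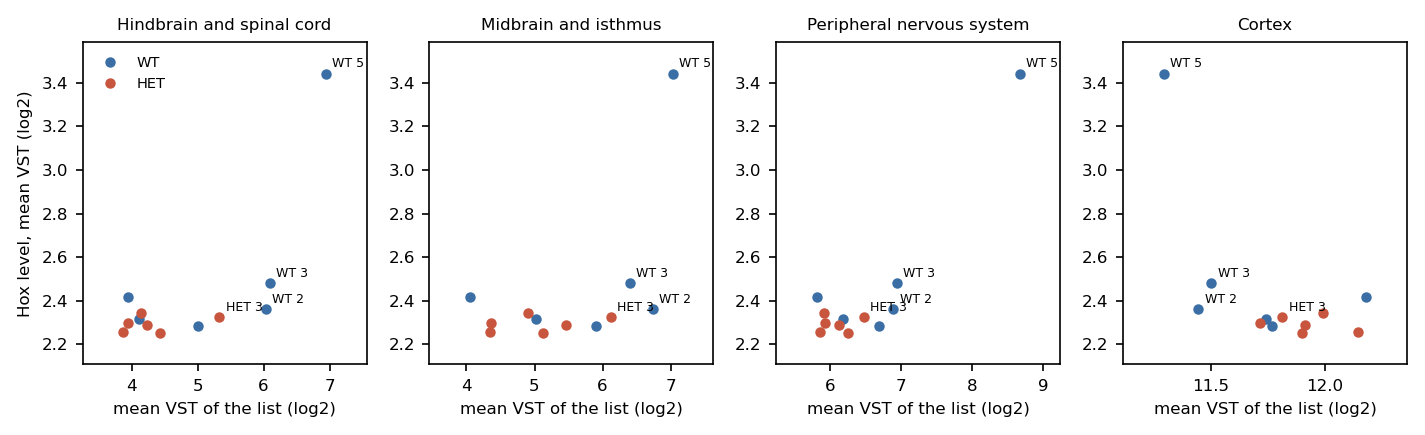
Hox level (mean VST over 39 genes, y axis) against the mean VST of 4 marker lists (x axes, log2) in the 12 mice at E14.5, WT in blue and HET in red, with 4 mice named. WT replicate 5 is highest on the first 3 lists and lowest on the cortex list, and WT replicates 2 and 3 and HET replicate 3 are next on the hindbrain list at much lower Hox levels.

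The genes whose values over the 12 mice were most like the Hox level were chosen from 3785 genes by Pearson's r, as a description. The 15 highest had r from 0.88 to 0.96 and included P2rx3, Scn10a and Pirt, channel and channel-regulating genes of pain-sensing neurons, Prph, Avil, Gfra3, Isl2 and Tlx1 of sensory and other peripheral neurons, Erbb3 and Ngfr of the Schwann cell lineage, and Clec18a, Fmn1 and Psmb9. P2rx3 had a VST of 8.86 in WT replicate 5 and 5.08 to 6.03 in the other 11 mice. Without WT replicate 5 the r of the 15 ran from -0.17 to 0.67, so the likeness rested on that mouse. All points share the same libraries.

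Genes that act with or on the Hox genes were counted from lists, on the deposited scale only; the counts were not recomputed after centring. Of the 9 TALE cofactors, none was called between genotypes at any age. In WT mice 8 of the 9 fell from E14.5 to 1 month and Pknox2 rose, and the same counts held in HET mice. Of all genes, 42.3% were called lower and 43.4% higher in WT mice and 42.4% and 43.7% in HET mice. Meis1 fell by 2.43 (SE 0.18) in WT mice and by 2.16 (SE 0.10) in HET mice, and Pbx3 by 3.05 (SE 0.15) and 2.79 (SE 0.14), with limma adjusted p of at most 4.00e-09. At E14.5 Meis1 was 10.3 in WT replicate 5 and 8.84 to 9.70 in the other 11 mice, and Pbx3 was 12.1 against 10.98 to 11.79.

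Of the 11 chromatin regulators of Hox genes, 10 fell from E14.5 to 1 month in each genotype, and none rose, against the same 42.3% lower in WT and 42.4% in HET mice over all genes. Ezh2, the methyltransferase of the Polycomb complex that keeps Hox genes silent, fell by 4.86 (SE 0.09) in WT mice and 4.96 (SE 0.06) in HET mice on the log2 scale. Between genotypes 1 of the 11 was called, at 6 months only: Phc1, another Polycomb gene, was lower in HET mice by -0.23 (SE 0.04; adjusted p = 0.0637 by limma; 0.0927% of all genes were called at that age). At the other ages its adjusted p was 0.982, 0.153 and 0.460, and the difference between ages was not tested for it.

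Among 15 enzymes, binding proteins and receptors of retinoic acid, 14 were tested between E14.5 and 1 month, of which 3 rose and 5 fell in WT mice and 5 rose and 6 fell in HET mice. Over all genes 43.4% rose and 42.3% fell in WT mice and 43.7% and 42.4% in HET mice. Crabp1, a retinoic acid binding protein, fell by 3.20 (SE 0.20) in WT mice and 2.63 (SE 0.14) in HET mice. None was called between genotypes. Cyp26b1, which degrades retinoic acid, was 10.9 in WT replicate 5, 10.2 in both WT replicates 3 and 2 and 9.58 in HET replicate 3, against 7.84 to 8.59 in the other 8 mice. Of the 7 upstream regulators, Cdx2 and Cdx4, which switch on the trunk Hox genes, were at their zero-read level in WT replicate 5. This did not set that mouse apart, since every other mouse at E14.5 also had 2 or 3 of the 7 at that level. No upstream regulator was called between genotypes at any age.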

How the data were processed

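RNA was read from the cortex of 48 mice. The authors aligned reads to mm9 with STAR 2.5.2b, quantified transcripts with Salmon 0.11.3 and deposited variance-stabilized log2 values; their batch term is not named, and the means of replicates 1 to 3 and 4 to 6 were equal in every gene, so a difference between these sets had been removed. Here limma 3.58.1 (R 4.3.3, trend) was fitted to genes with a mean at least 0.5 above the floor, with Benjamini-Hochberg adjustment over all genes tested and a threshold of 0.1; exact permutation tests were two-sided. The fit was tested on simulated data. Reads were recovered as an addition chosen after seeing the data, with no count test. Members were all rows matching the symbol rule. Given mouse by mouse were the 10 with the highest SD at E14.5, with group means for genes at least 0.5 above the floor at any age; Hoxd1, Hoxd8, Hoxb9 and Hoxa7 were given by reads after their values were seen. The 15 like genes were those with the highest r and an SD of at least 0.3. The members and lists were chosen with earlier results of these data known. Same-numbered mice were not paired in the main fits, although 4 of 6 pairs at E14.5 had deviations correlated above 0.1. At 1, 6 and 12 months 0, 1 and 0 of 6 pairs did. Fits with a replicate block are among the alternatives. Replicates are separate mice per the study; the depth per sample is given relative to the others, since the table holds no totals. Results of some genes are not reported here. Alternatives are listed at the end. Exact tests used scipy 1.17.1 under Python 3.11.15.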

Additional observations from a re-analysis of the deposited data

Results flagged for a closer look

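Of 46 sets of 6 mice checked (a measure at 1 age in 1 genotype), 17 held a mouse far from the other 5 by Dixon's test. The nominal rate of that test, about 1 in 20, does not apply here, since the sets share mice and many values lie at the floor. The filter also chose genes by their mean. Hoxb2, Hoxa3, Hoxb3, Hoxd3, Hoxc4 and Hoxb5 passed it at E14.5 only through WT replicate 5. WT replicate 5 at E14.5 accounted for 9 of the 17. Its Hox level was 3.44 against 2.28 to 2.48 in the other WT mice, and its summed normalized count 1065 against 12.0 to 42.1. Its VST was 6.33 for Hoxb2, 6.75 for Hoxa3, 8.41 for Hoxb3 and 7.52 for Hoxd3. For Hoxb4, Hoxc4 and Hoxb5 it was 5.36, 5.60 and 5.49. All of these were high values.

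At E14.5 HET replicate 5 had a Hoxc4 VST of 1.96, the zero-read level of its set of replicates, while the other 5 HET mice lay between 2.33 and 2.53; replicates 1, 2 and 3 had no reads either, and their 2.33 is the zero-read level of the other set, so the gap to them is the removed difference between sets, and replicates 4 and 6 had 1 read each. After birth the summed normalized count stood apart in WT replicate 5 at 1 month (13.8, from the shallowest library of the 48), HET replicate 6 at 1 month (18.1), WT replicate 1 at 6 months (2.92, a low value) and HET replicate 4 at 12 months (17.4, from the deepest). The Hox level of WT replicate 6 at 12 months was 2.15, below the 2.22 to 2.25 of the others; with the zero-read levels of both sets put at the floor it was 2.18, beside 2.19 in WT replicate 3 and up to 2.27 in the others. Hoxd1 at 12 months was 2.10, its zero-read level, in WT replicate 4 and 3.55 in HET replicate 2.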

How the results depend on the processing

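No Hox gene was called between genotypes at any of the 4 ages in the 88 alternatives run, the replicate block among them (0 genes at each age), nor in 3 alternatives for the contrast of E14.5 with later ages. In 7 alternatives no Hox gene was left to test. Between 1 month and E14.5 in WT mice the count of 3 became 5 with the replicate block, 6 without a filter on low values, 6 with each mouse centred on its median gene and 7 after quantile normalization, and 2 to 6 when 1 mouse was left out; it was 2 without replicate 5 at E14.5. In HET mice the count of 2 became 1 in a single fit of all 48 mice, where Hoxd1 was called, and 1 to 2 when 1 mouse was left out: without replicate 1, 2, 4, 5 or 6 at E14.5 Hoxb9 fell under the filter and Hoxd8 was called. With the replicate block it was 2. Centring moved the share of calls that were higher at 1 month from 50.7% to 42.6% of all genes called in WT mice and from 50.8% to 42.2% in HET mice. The Hox level difference of -0.26 became -0.85 over paralog groups 1 to 3 and -0.70 over genes at least 0.5 above the floor, and lay between -0.31 and -0.08 when 1 mouse was left out; 18 of 19 alternatives were below 0. WT replicate 5 ranked 1 by Hox level and 11 over paralog groups 9 to 13. The main fits did not use the replicate numbers as pairs. At E14.5 same-numbered WT and HET mice correlated at 0.0119 to 0.58, and 4 of 6 WT mice correlated best with their own number. At 1, 6 and 12 months 1, 1 and 0 of 6 did. What same-numbered mice shared at E14.5 is not given in the sources used here and was not tested. The few reads limit all other mice than WT replicate 5, and a gene at 0 may be present below 3 reads.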
